A study of Mus musculus with 15 samples.

Results

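The genes described here encode the translation initiation factors (symbols Eif1 to Eif6) and the translation elongation factors (symbols Eef1 and Eef2), with the regulators and modifying enzymes that carry those symbols. They were chosen by symbol alone, leaving out Eif2s3x and Eif2s3y, which gave 56 genes of the 18194 that had a probe set of 1 gene on the array. Of these, 52 exceeded a log2 value of 5 on at least 3 of the 15 arrays and were tested. Eef1aknmt, Eef2kmt, Eif2ak2 and Eif4a3 were not above 5 on any array, so these 4 have no comparison.

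RNA was extracted from hand-picked, GFP-positive G42 neurons of the primary somatosensory cortex of mice and read on Affymetrix Mouse Genome 430 2.0 arrays. The G42 line marks parvalbumin-class, fast-spiking interneurons by GFP, and every group carries this transgene. There were 5 age groups of 3 animals, 1 array an animal: postnatal day (P) 7, P10, P15, P25 and P40, of which the last covers P40 to P45. In the labels the groups differ by age, and the number of cells picked for each animal also differed between ages. It was 52 to 85 at P7, 47 to 72 at P10, 23 to 45 at P15, 48 to 55 at P25 and 38 to 60 at P40. Each value is an average over a small pool of labelled cells.

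Initiation begins when eIF2 brings the initiator tRNA to the small ribosomal subunit, which eIF1, eIF1A, eIF3 and eIF5 help to find the start codon. The eIF4F complex, made of the cap-binding protein eIF4E, the scaffold eIF4G and the helicase eIF4A, recruits the mRNA, and 4E-BP proteins hold eIF4E back when they are not phosphorylated by mTORC1. Kinases that phosphorylate eIF2 block its recycling by eIF2B and so reduce initiation. In elongation, eEF1A delivers aminoacyl-tRNA, the eEF1B complex recharges eEF1A with GTP, and eEF2 moves the ribosome along. Neurons are known to replace the eEF1A1 isoform by eEF1A2 as they mature.

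The elongation factor and helicase pairs Eef1a2 with Eef1a1 and Eif4a2 with Eif4a1 changed in opposite directions with age, and their promoters are shown for that reason. Each line gives 100 bases before and 20 bases after the transcription start in RefSeq on GRCm38.p6, read 5′ to 3′ on the gene's strand. Capitals mark matches to GGGCGG (the GC box) or CCAAT (the CCAAT box) on either strand.
Eef1a2 (chr2:181156996-181157115, minus strand): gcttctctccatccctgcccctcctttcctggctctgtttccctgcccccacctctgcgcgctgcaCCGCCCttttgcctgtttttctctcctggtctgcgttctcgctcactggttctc
Eef1a1 (chr9:78481705-78481824, minus strand): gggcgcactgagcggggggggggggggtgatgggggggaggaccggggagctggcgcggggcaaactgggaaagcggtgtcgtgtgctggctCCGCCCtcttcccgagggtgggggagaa
Eif4a2 (chr16:23107368-23107487, plus strand): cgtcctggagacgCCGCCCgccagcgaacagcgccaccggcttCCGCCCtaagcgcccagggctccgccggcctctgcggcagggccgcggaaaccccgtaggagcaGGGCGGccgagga
Eif4a1 (chr11:69672404-69672523, minus strand): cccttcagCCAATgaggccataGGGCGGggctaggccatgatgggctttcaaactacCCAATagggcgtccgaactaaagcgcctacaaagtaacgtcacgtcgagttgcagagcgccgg

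Within these lines the GC box matched at 1 place each in Eef1a2, Eef1a1 and Eif4a1 and at 3 places in Eif4a2, while CCAAT matched only in Eif4a1, at 2 places. No TATAAA was found in any of the 4. RefSeq promoter windows of 300 bases were at hand for 45 of the 56 genes, 60 windows in all. The GC box occurred in 68.3% of those 60 windows, against 63.8% of 10291 windows of tested genes and 35.7% of all 32851 windows. The CCAAT box was in 26.7% of the 60 windows, against 37.4% of windows of tested genes and 37.4% of all windows. The letters CCGGAAG, an ETS-type site, were in 31.7% of the 60 windows, against 17.9% of windows of tested genes and 8.86% of all. Windows of 1 gene overlap, the windows were compared without a test, and a match is only a match of letters.

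Values are log2 and came from GCRMA, a method that corrects, normalizes and summarises the probes of a set, and 5 serves as the limit between signal and background. The labelled cell type was checked first. Pvalb, the calcium-binding protein of this class, read 14.28 ± 0.20 at P40 and 3.62 ± 0.72 at P7 (SD, n = 3 each), and all 6 parvalbumin interneuron markers exceeded 5 on at least 3 arrays. None of 3 excitatory neuron markers, 3 oligodendrocyte precursor markers, 3 endothelial markers and 1 blood marker did so. The exceptions were 2 of 4 astrocyte markers (Aqp4 and Slc1a3), 1 of 3 oligodendrocyte markers (Mbp) and 1 of 4 microglial markers (Csf1r). Csf1r averaged 5.11 ± 0.92 at P7 and 3.28 ± 0.07 at P40, and Slc1a3 4.88 ± 1.61 and 3.11 ± 0.33. Aqp4 averaged 2.66 ± 0.04 at P7 and 2.55 ± 0.03 at P40. The part of such cells in the differences between P40 and P7 was not tested. Mbp averaged 11.21 ± 0.63 at P25, against 6.52 to 8.22 at the other ages. The 3′ minus 5′ difference of the beta-actin control probe sets, a sign of how far RNA was degraded or shortened in amplification, averaged 3.93 ± 0.55 at P40 and 5.77 ± 0.98 at P7. P15 replicates 2 and 3 had hybridization control medians of 2.54 or less, against 9.44 or more on the other arrays. In bulk samples such as these, fewer cells of a type and less RNA per cell cannot be told apart.

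Comparing P40 with P7, 9 of the 52 tested genes rose, 13 fell and 30 did not pass. A pass is an adjusted p under 0.05 in limma, with Benjamini-Hochberg adjustment over all 9664 genes tested. The 22 calls are 42.3% of the 52, against 45.2% of all genes tested, so the family as a whole was called about as often as other genes. By direction, 17.3% rose against 27.6% of all genes, and 25% fell against 17.6%. At an unadjusted p under 0.05, 25 of the 52 passed. The median difference of the 52 was 0.01 on the log2 scale, against 0.18 over all genes tested. Quantile normalization moved the median of all genes to -0.01 and that of the 52 to -0.20, with 6 higher and 15 lower, and equal array medians gave 6 higher and 17 lower. Over all genes tested, quantile normalization gave 2208 higher and 2167 lower, and equal array medians 2154 and 2203, against 2663 and 1703 without them. None of the 22 called genes changed sign under any of the 29 other settings that gave it a value. Eif2ak3 and Eif4g3 had none under the mean of probe sets, where they were not tested.

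All 22 called genes had P40 arrays that did not overlap the P7 arrays. The calls come from these same arrays, so the lack of overlap is no separate support for them. Counting uncalled genes too, 13 of the 52 lay wholly higher and 15 wholly lower at P40, against 33.2% and 22.6% of all genes tested. The number of rises moved more with single arrays left out than the number of falls. Without P7 replicate 3, 4 genes were higher, and without P40 replicate 1, 5 were, while the number lower stayed between 10 and 13 over all 15 arrays left out. Over all genes tested, 2213 were higher without P7 replicate 3 and 2169 without P40 replicate 1, against 2663 with all arrays. When the beta-actin difference entered the fit as a covariate, 2 genes, Eif5a2 and Eif2ak3, remained among the 9 higher and 10 remained among the 13 lower. Over all genes tested, that covariate took the number higher from 2663 to 1369 and the number lower from 1703 to 1284. The beta-actin difference ran from 3.40 to 4.50 at P40 and from 4.64 to 6.41 at P7, without overlap. Its effect and that of age therefore cannot be told apart between these 2 ages. With the number of cells picked as a covariate, 4 genes remained higher and 12 remained lower, and 2141 of all genes tested were higher and 1477 lower.

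**Figure D1:**
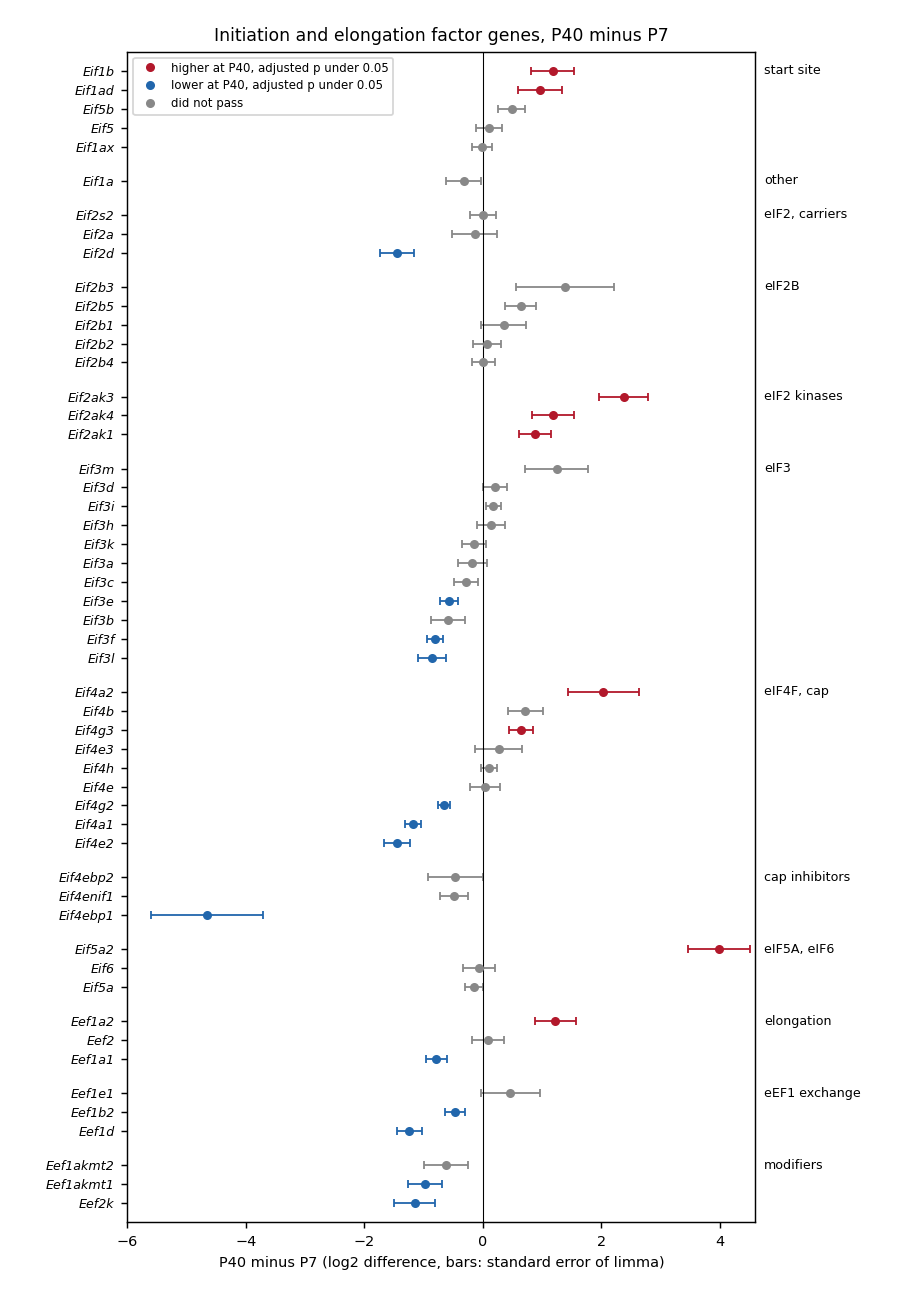
P40 minus P7 log2 difference of each of the 52 tested genes, grouped by role, with the standard error from limma as bars; red genes rose, blue genes fell and grey genes did not pass at an adjusted p of 0.05. Eif5a2 at 3.99 and Eif4ebp1 at -4.66 mark the ends of the range. All 3 tested eIF2 kinases lie to the right, and 5 of 9 Eef genes fell, against 27.6% higher and 17.6% lower of all genes.

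Among the elongation carriers, Eef1a2 rose and Eef1a1 fell, while Eef2, the translocase, did not pass. Eef1a2 is the eEF1A isoform of mature neurons and muscle, and Eef1a1 is the broadly expressed isoform. Eef1a2 read 11.78, 11.86 and 11.06 on the 3 P7 arrays, 12.46, 10.82 and 12.01 at P10, 12.42, 12.32 and 12.81 at P15, 12.07, 12.06 and 12.55 at P25, and 12.61, 13.18 and 12.57 at P40. All 3 P40 arrays lay above all 3 P7 arrays, and the P10 arrays ranged from below to above the P7 arrays. Eef1a2 averaged 12.78 ± 0.34 at P40 and 11.56 ± 0.44 at P7 (SD, n = 3 each), a log2 difference of 1.22 (SE 0.34, limma adjusted p = 0.00993) or 2.33-fold. The call was lost without P7 replicate 3 (difference 0.97, adjusted p = 0.0510) and with the beta-actin covariate (0.85, adjusted p = 0.171).

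Eef1a1 read 14.34, 14.28 and 13.97 at P7, 13.74, 13.55 and 14.02 at P10, 13.73, 14.04 and 14.07 at P15, 13.33, 13.05 and 12.81 at P25, and 13.14, 13.50 and 13.60 at P40. The P25 and P40 arrays all lay below the P7 arrays, and P25 had the lowest mean. The gene averaged 13.41 ± 0.24 at P40 and 14.20 ± 0.20 at P7, a log2 difference of -0.79 (SE 0.17, limma adjusted p = 0.00196), which is 1.72-fold lower. This call held under all 29 settings, with differences from -1.03 to -0.65. Eef2 averaged 11.63 ± 0.34 at P40 and 11.55 ± 0.36 at P7, with an adjusted p of 0.826 in limma. Eef1a1 has near-identical processed pseudogenes in the mouse genome, so its probe set may not read this gene alone.

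**Figure D2:**
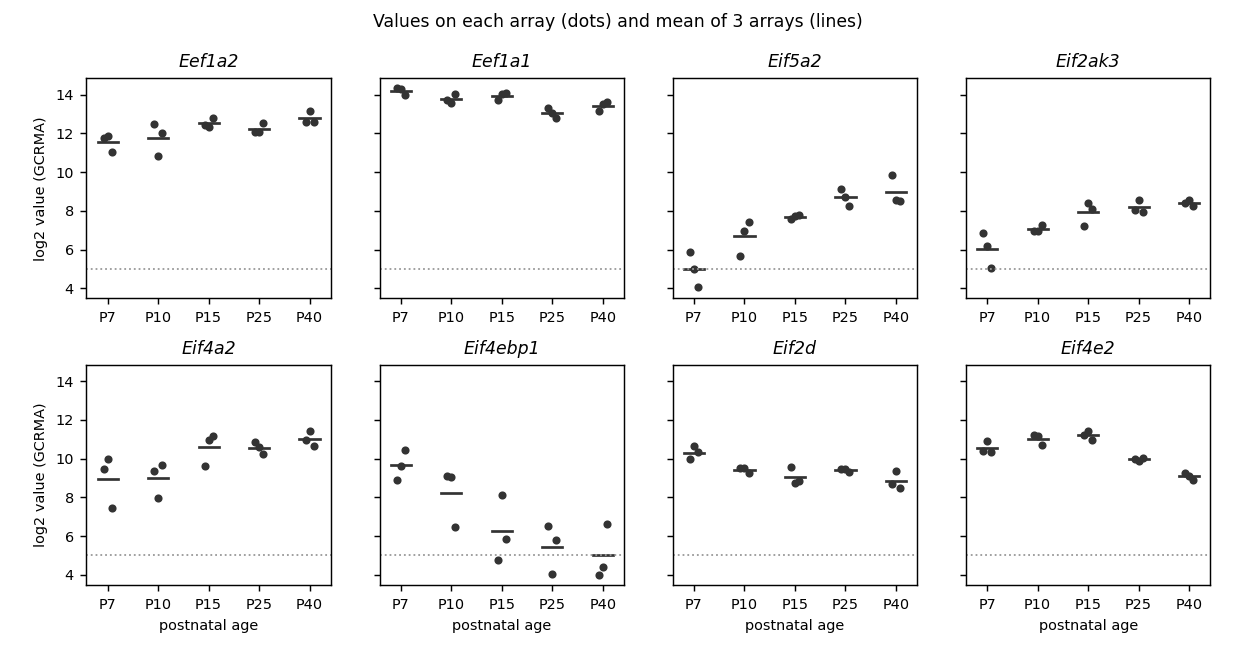
Log2 GCRMA value on each array (dots) and the mean of 3 arrays (lines) of Eef1a2, Eef1a1 and the 3 largest rises and 3 largest falls, by postnatal age; the dotted line is the limit of 5. Eif5a2 is at or near the limit at P7 and at 8.53 to 9.83 at P40, and 2 of the 3 P40 arrays of Eif4ebp1 lie under the limit.

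In the eEF1 exchange complex, which reloads eEF1A with GTP, 2 of 3 tested genes fell, against 17.6% of all genes tested. Eef1d, the delta subunit, averaged 11.62 ± 0.18 at P40 and 12.86 ± 0.18 at P7 (log2 difference -1.24, SE 0.21, limma adjusted p = 0.000245). Its P40 arrays read 11.63, 11.43 and 11.80, and its P7 arrays 12.66, 13.00 and 12.93, with no overlap. A second Eef1d probe set, with a mean of 10.14, differed by -0.53, and the mean of its probe sets gave -0.49, still a call. Eef1b2, the beta subunit, fell by 0.48 on the log2 scale (limma adjusted p = 0.0318). That call was lost without P7 replicate 1 (-0.31, adjusted p = 0.143), P40 replicate 1 or P40 replicate 2, without a trend, and without P15 replicates 2 and 3. Eef1e1, which is also a scaffold of the aminoacyl-tRNA synthetase complex, differed by 0.46 and did not pass.

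Of the 3 tested modifiers of elongation factors, 2 fell. Eef2k, the kinase that inhibits eEF2 by phosphorylation, averaged 8.43 ± 0.46 at P40 and 9.58 ± 0.06 at P7 (log2 difference -1.15, SE 0.35, limma adjusted p = 0.0153). Its call was lost without P40 replicate 1 and with either covariate. Eef1akmt1, a lysine methyltransferase of eEF1A in human cells, averaged 10.30 ± 0.39 at P40 and 11.28 ± 0.43 at P7 (log2 difference -0.98, limma adjusted p = 0.0105). That call was lost without P7 replicate 2 or P40 replicate 1, with the beta-actin covariate (-0.79) and with the mean of probe sets (-0.43). Eef1akmt2 had a difference of -0.62 and did not pass. Over all 9 tested Eef genes, 1 rose, 5 fell and 3 did not pass, with a median difference of -0.62. Of all genes tested, 27.6% rose and 17.6% fell, with a median of 0.18. Of the 43 tested Eif genes, 8 rose, 8 fell and 27 did not pass, with a median of 0.03, and the medians were compared without a test.

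The largest rise was that of Eif5a2, a paralog of Eif5a, whose proteins carry the hypusine residue and help ribosomes past difficult peptide bonds. Eif5a2 read 5.87, 5.01 and 4.08 at P7, 5.64, 6.97 and 7.43 at P10, 7.60, 7.73 and 7.76 at P15, 9.14, 8.71 and 8.24 at P25, and 9.83, 8.56 and 8.53 at P40. The arrays of P25 and P40 all lay above those of the 3 younger ages. It averaged 8.97 ± 0.74 at P40 and 4.99 ± 0.90 at P7, a log2 difference of 3.99 (SE 0.52, limma adjusted p = 2.61e-05). No fold is given because the P7 mean is under the limit of 5, and with values under 5 set to 5 the difference was 3.68. The call held under all 29 settings, at 2.17 with the mean of probe sets and from 3.53 to 4.43 without single arrays. The other 2 genes of this group did not pass: Eif5a differed by -0.15 and Eif6, which keeps the large ribosomal subunit apart from the small one, by -0.07.

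All 3 tested eIF2 kinases rose, against 27.6% of all genes tested. They sense different stresses: Eif2ak3 encodes PERK, of the endoplasmic reticulum, Eif2ak4 encodes GCN2, which responds to uncharged tRNA, and Eif2ak1 encodes HRI, which responds to low heme. Eif2ak3 read 6.88, 6.19 and 5.05 at P7, 6.95, 6.97 and 7.27 at P10, 7.22, 8.41 and 8.11 at P15, 8.03, 8.58 and 7.96 at P25, and 8.41, 8.58 and 8.27 at P40. Every array from P10 on lay above all P7 arrays. The averages were 8.42 ± 0.16 at P40 and 6.04 ± 0.92 at P7, a log2 difference of 2.38 (SE 0.42, limma adjusted p = 0.000346) or 5.20-fold. The difference was 1.68 with the beta-actin covariate, still a call. With the mean of probe sets none of the 3 kinases was called: Eif2ak3 was not tested, and Eif2ak4 and Eif2ak1 had differences of 0.34 and 0.17 (adjusted p = 0.218 and 0.510).

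Eif2ak4 read 9.27, 8.70 and 9.18 at P40 and 8.28, 8.23 and 7.09 at P7, a log2 difference of 1.18 (SE 0.35, limma adjusted p = 0.0126). Eif2ak1 read 8.05, 8.31 and 7.97 at P40 and 7.49, 6.85 and 7.37 at P7, a log2 difference of 0.88 (SE 0.27, limma adjusted p = 0.0165). In both genes the ages did not overlap, yet these calls were less stable than that of Eif2ak3. Eif2ak4 lost its call without P7 replicate 3 (0.80, adjusted p = 0.0653) or P40 replicate 1, with either covariate and with the mean of probe sets. Eif2ak1 lost it without P7 replicate 2 or P40 replicate 2, under both other normalizations, with the beta-actin covariate, with the mean of probe sets and with only the 2 ages compared. Eif2ak2, which encodes the double-stranded RNA sensor PKR, stayed between 3.96 and 4.49 on all arrays.

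None of the 5 tested eIF2B genes, which encode the exchange factor that phosphorylated eIF2 inhibits, passed, and their differences ran from 0.01 to 1.38. Eif2b3, at 1.38, was near background, at 5.68 ± 0.15 at P40 and 4.30 ± 1.37 at P7. Among the carriers of the initiator tRNA, Eif2s2, the beta subunit of eIF2, differed by 0.01 and Eif2a, which encodes an alternative carrier, by -0.14, and neither passed. Eif2d, which can place initiator tRNA without GTP and acts in ribosome recycling, fell. It read 9.96, 10.65 and 10.32 at P7, 9.51, 9.53 and 9.27 at P10, 9.55, 8.75 and 8.84 at P15, 9.49, 9.47 and 9.29 at P25, and 8.71, 9.38 and 8.49 at P40. Every later array was below all P7 arrays.

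Eif2d averaged 8.86 ± 0.46 at P40 and 10.31 ± 0.34 at P7, a log2 difference of -1.45 (SE 0.29, limma adjusted p = 0.000901), 2.74-fold lower. Its 3 dimmer probe sets differed by -0.69, -0.60 and 1.33, and the last, with a mean of 5.25 near background, passed in the opposite direction in a fit over probe sets. With the mean of its probe sets the difference of Eif2d was -0.30, which did not pass.

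The group assigned to start site selection and scanning counted Eif1ad, whose role in these steps was not tested, and left out Eif1a. In that group, 2 of 5 tested genes rose, against 27.6% of all genes tested, and 3 did not pass. Eif1b, a paralog of Eif1, averaged 12.79 ± 0.26 at P40 and 11.61 ± 0.87 at P7 (log2 difference 1.18, SE 0.36, limma adjusted p = 0.0143). Its P40 arrays read 13.08, 12.73 and 12.56, and its P7 arrays 12.47, 11.65 and 10.72. The call was lost without P7 replicate 3 (0.73, adjusted p = 0.0763) or P40 replicate 1, and with either covariate. Eif1ad rose by 0.97 on the log2 scale (limma adjusted p = 0.0456), and this call held under 12 of the 29 settings. Eif1ax, Eif5 and Eif5b, which encode eIF1A, the activator of GTP hydrolysis by eIF2 and the factor that joins the subunits, differed by -0.02, 0.11 and 0.48 and did not pass. Eif1a, a further eIF1A gene, differed by -0.32 and did not pass.

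Of the 11 tested subunits of eIF3, the scaffold on the small ribosomal subunit, 3 fell, none rose and 8 did not pass. The falls are 27.3% of the 11, against 17.6% of all genes tested, of which 27.6% rose. Eif3f averaged 12.33 ± 0.11 at P40 and 13.13 ± 0.17 at P7 (log2 difference -0.80, SE 0.14, limma adjusted p = 0.000285). Its P40 arrays read 12.21, 12.42 and 12.37, against 13.28, 13.17 and 12.95 at P7. Eif3l fell by 0.86 and Eif3e by 0.57 on the log2 scale, with adjusted p of 0.00945 and 0.00624 in limma. The differences of the 8 others ran from -0.59 for Eif3b to 1.25 for Eif3m.

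The cap-binding and eIF4F group also counts the paralogs Eif4e2 and Eif4g2 and the helicase stimulators Eif4b and Eif4h. Of its 9 tested genes, 2 rose, 3 fell and 4 did not pass, against 27.6% higher and 17.6% lower of all genes. Eif4a2, the neuron-enriched helicase paralog, read 9.47, 10.01 and 7.45 at P7, 9.39, 7.97 and 9.70 at P10, 9.60, 10.98 and 11.16 at P15, 10.86, 10.61 and 10.23 at P25, and 10.98, 11.43 and 10.63 at P40. All P25 and P40 arrays lay above all P7 and P10 arrays, and P7 replicate 3 and P10 replicate 2 were the lowest. Eif4a2 averaged 11.01 ± 0.40 at P40 and 8.98 ± 1.35 at P7, a log2 difference of 2.04 (SE 0.60, limma adjusted p = 0.0121) or 4.10-fold. Without P7 replicate 3 the difference was 1.28 and no longer a call (adjusted p = 0.0634). With the beta-actin covariate it was 0.99 (adjusted p = 0.304).

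Eif4a1, the helicase of most tissues, fell with little spread. It averaged 11.45 ± 0.05 at P40 and 12.63 ± 0.10 at P7 (log2 difference -1.18, SE 0.13, limma adjusted p = 7.2e-06), 2.27-fold lower. The arrays read 12.74, 12.56 and 12.59 at P7, 12.66, 12.58 and 12.46 at P10, 12.26, 12.13 and 12.08 at P15, 11.84, 11.68 and 11.62 at P25, and 11.46, 11.39 and 11.49 at P40. From P15 on, the arrays of each age lay below all arrays of the age before. A second Eif4a1 probe set, with a mean of 4.88, differed by 0.11, and the mean of its probe sets gave -0.63, which did not pass (adjusted p = 0.0791).

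Eif4e2, which encodes the cap-binding protein 4EHP that can hold mRNAs back from translation, read 10.37, 10.93 and 10.35 at P7, 11.21, 11.16 and 10.70 at P10, 11.21, 11.43 and 10.96 at P15, 9.98, 9.87 and 10.05 at P25, and 9.27, 9.11 and 8.91 at P40. The P40 arrays were the lowest of all and the P25 arrays came next. Eif4e2 averaged 9.10 ± 0.18 at P40 and 10.55 ± 0.33 at P7, a log2 difference of -1.45 (SE 0.23, limma adjusted p = 0.000133), 2.73-fold lower. Its second probe set, with a mean of 5.13, differed by -0.09, and the mean of both gave -0.37, which did not pass. Eif4e, the main cap-binding protein, differed by 0.03 and did not pass, and its sign turned under both other normalizations.

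Eif4g3, a scaffold paralog, rose by 0.65 (SE 0.21, limma adjusted p = 0.0196), with P40 arrays at 12.79, 12.31 and 12.65 and P7 arrays at 11.61, 12.16 and 12.04. The call was lost under both other normalizations (0.49 and 0.43), with both covariates, and without P7 replicate 1, P40 replicate 1 or P40 replicate 3. Eif4g2, which encodes a scaffold without the eIF4E-binding part (DAP5), fell by 0.65 on the log2 scale (limma adjusted p = 0.000109). Its 2 dimmer probe sets differed by 0.23 and 0.19, and the mean of its probe sets gave -0.29, which did not pass. Eif4b and Eif4h, which stimulate the helicase, differed by 0.72 and 0.11, and Eif4e3 by 0.27, and none of these passed.

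Eif4ebp1, which encodes the eIF4E inhibitor 4E-BP1, had the largest fall. It read 8.91, 9.64 and 10.44 at P7, 9.10, 9.06 and 6.45 at P10, 4.77, 8.12 and 5.84 at P15, 6.52, 4.03 and 5.80 at P25, and 3.99, 4.40 and 6.63 at P40. All P7 arrays but 1 lay above every later array, the exception being P7 replicate 1, which lay below P10 replicates 1 and 2. Eif4ebp1 averaged 5.01 ± 1.42 at P40 and 9.66 ± 0.77 at P7, a log2 difference of -4.66 (SE 0.95, limma adjusted p = 0.00114). Because 2 of 3 P40 arrays were under 5, the 25.2-fold lower mean compares signal with background, and with values under 5 set to 5 the difference was -4.12. Its second probe set differed by -1.97 and passed too, and the mean of both gave -2.30. Without P40 replicate 3 the difference was -5.47. Eif4ebp2, the 4E-BP gene best known from brain, and Eif4enif1, the 4E transporter, differed by -0.46 and -0.49 and did not pass.

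The differences within pairs of paralogs were taken on each array, and the 6 arrays of P25 and P40 were set against the 6 of P7 and P10. Exact two-sided permutation tests over arrays were adjusted over 6 pairs, and the smallest p this design allows is 0.00216. A level of 1 probe set cannot be ranked against another, so the order of levels in a pair is not read. Eef1a2 minus Eef1a1 lay between -1.26 and -0.27 on the later arrays and between -2.91 and -1.28 on the earlier ones. It was 1.59 higher on the later arrays (exact p = 0.00216, adjusted p = 0.00325), made up of 0.84 for Eef1a2 and -0.75 for Eef1a1.

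Eif4a2 minus Eif4a1 was 2.81 higher on the later arrays, with 1.79 from Eif4a2 and -1.02 from Eif4a1. Eif5a2 minus Eif5a was 2.95 higher, and Eif4ebp2 minus Eif4ebp1 was 4.28 higher. Each of these 3 pairs had an exact p of 0.00216 (adjusted p = 0.00325), with no overlap of later and earlier arrays. In the last of them the change came from Eif4ebp1, at -3.70, against 0.57 for Eif4ebp2. Some later values of Eif4ebp1 and an earlier value of Eif5a2 were under 5, so the sizes of these 2 pairs include background. With the mean of probe sets Eif5a2 minus Eif5a was 1.77 higher and Eif4ebp2 minus Eif4ebp1 1.72 higher, and both still passed. Eif4e2 minus Eif4e was lower by the exact test, by -1.22 (exact p = 0.00433, adjusted p = 0.00519), with some overlap of later and earlier arrays. With P15 among the later ages this difference was -0.61 and no longer passed. Eif4e3 minus Eif4e changed by -0.28 (exact p = 0.535).

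**Figure D3:**
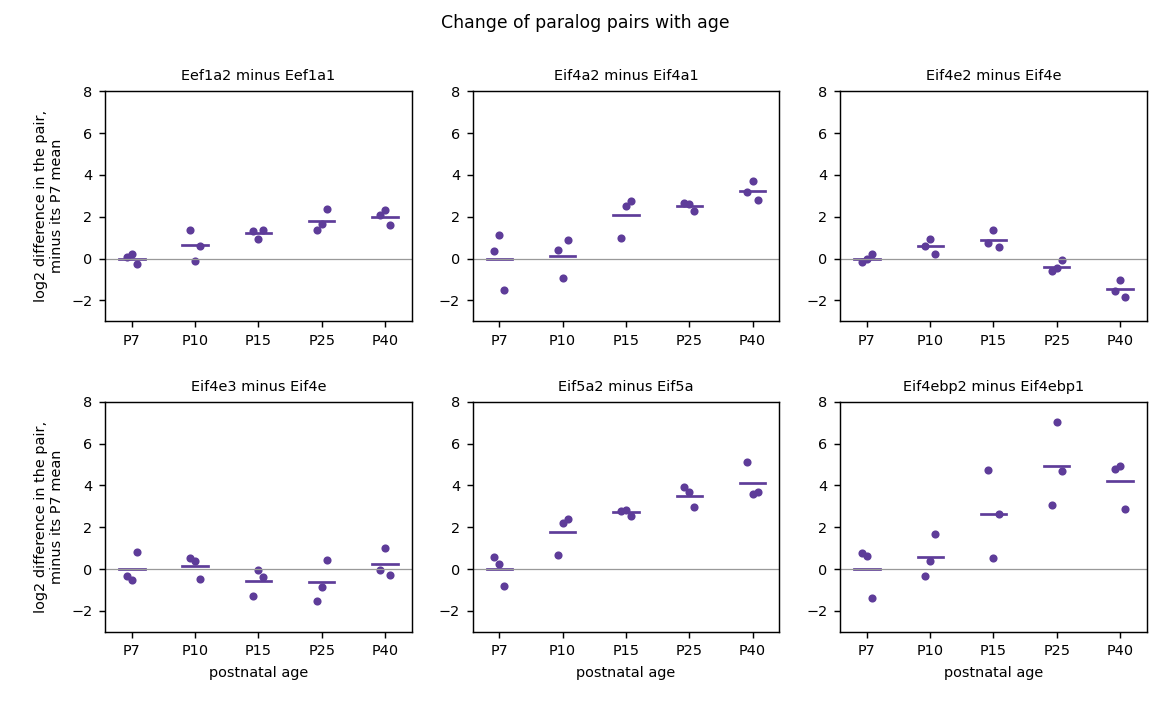
Log2 difference between the genes of each paralog pair on every array (dots) and the mean of 3 arrays (lines), set to 0 at the P7 mean, by postnatal age. Eef1a2 minus Eef1a1 and Eif4a2 minus Eif4a1 had P40 means 2.01 and 3.22 above P7, and the Eif4e3 minus Eif4e pair had a P40 mean 0.23 above P7.

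Between neighbouring ages few of the 52 genes passed. At P10 against P7 none did by limma, 9 were at an unadjusted p under 0.05, and 3.6% of all genes tested passed. For P15 against P10, Eif1b rose by 1.25 (SE 0.36, adjusted p = 0.0365) and Eif3d by 0.66 (SE 0.20, adjusted p = 0.0466), with 11.4% of all genes called and 8.58% higher. For P25 against P15, 4 genes fell, against 4.86% of all genes called and 2.49% lower: Eif4e2 by 1.23, Eif3a by 1.04, Eif3l by 0.94 and Eef1a1 by 0.89 on the log2 scale, the last outside the naming rule. For P40 against P25, Eif3a alone rose, by 1.20 (SE 0.24, adjusted p = 0.0409), with 0.673% of all genes called and 0.404% higher. The count of 7 calls moved with the P15 arrays with the low hybridization control: it was 2 without P15 replicate 2 and 1 without P15 replicate 3. Leaving out both leaves a single P15 array, so its calls are not counted here. Over all genes tested, calls for P15 against P10 went from 1099 to 149 and 305, and for P25 against P15 from 470 to 227 and 153. The call of Eif3a for P40 against P25 involves the P15 arrays only through the shared estimate of the spread, yet it was lost without P15 replicate 2 or 3. It was also lost without P7 replicate 2, P25 replicate 1 or 2, or P40 replicate 1 or 3, and held under 15 of the 29 settings. Its difference stayed between 1.04 and 1.37 without single arrays. Other arrays moved the count as well: it was 11 without P7 replicate 1, 12 without P10 replicate 3, 13 without P15 replicate 1, 4 without P25 replicate 1, 3 without P25 replicate 2 and 4 without P40 replicate 3. Over all genes tested, the first 3 of these gave 1505, 1905 and 1507 calls for P15 against P10. The last 3 gave 282, 181 and 354 for P25 against P15.

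The moderated F test over the 5 ages called 24 of the 52 genes, against 47.2% of all genes tested. Of these, 5 were not called between P40 and P7, and each of them had its highest or lowest mean at a middle age. Eif3a, the largest eIF3 subunit, averaged 12.56 ± 0.36, 12.50 ± 0.31, 12.21 ± 0.29, 11.17 ± 0.33 and 12.38 ± 0.30 from P7 to P40 (limma adjusted p = 0.00147). Its P25 arrays read 10.85, 11.17 and 11.50 and lay below all other arrays. Eif5 was lowest at P25 as well, at 12.12 ± 0.41, against 12.54 to 13.12 at the other ages (adjusted p = 0.0102 in limma). Eif5b and Eif4ebp2 were highest at P25, at 8.50 ± 0.03 and 7.61 ± 0.74, with limma adjusted p of 0.0106 and 0.0434. Mbp was also highest at P25, and its part in these values was not tested. Eif3d had its lowest mean at P10, 10.65 ± 0.28 (limma adjusted p = 0.0423). The calls of Eif3d and Eif4ebp2 held under 9 of 28 and 11 of 27 settings.

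**Figure D4:**
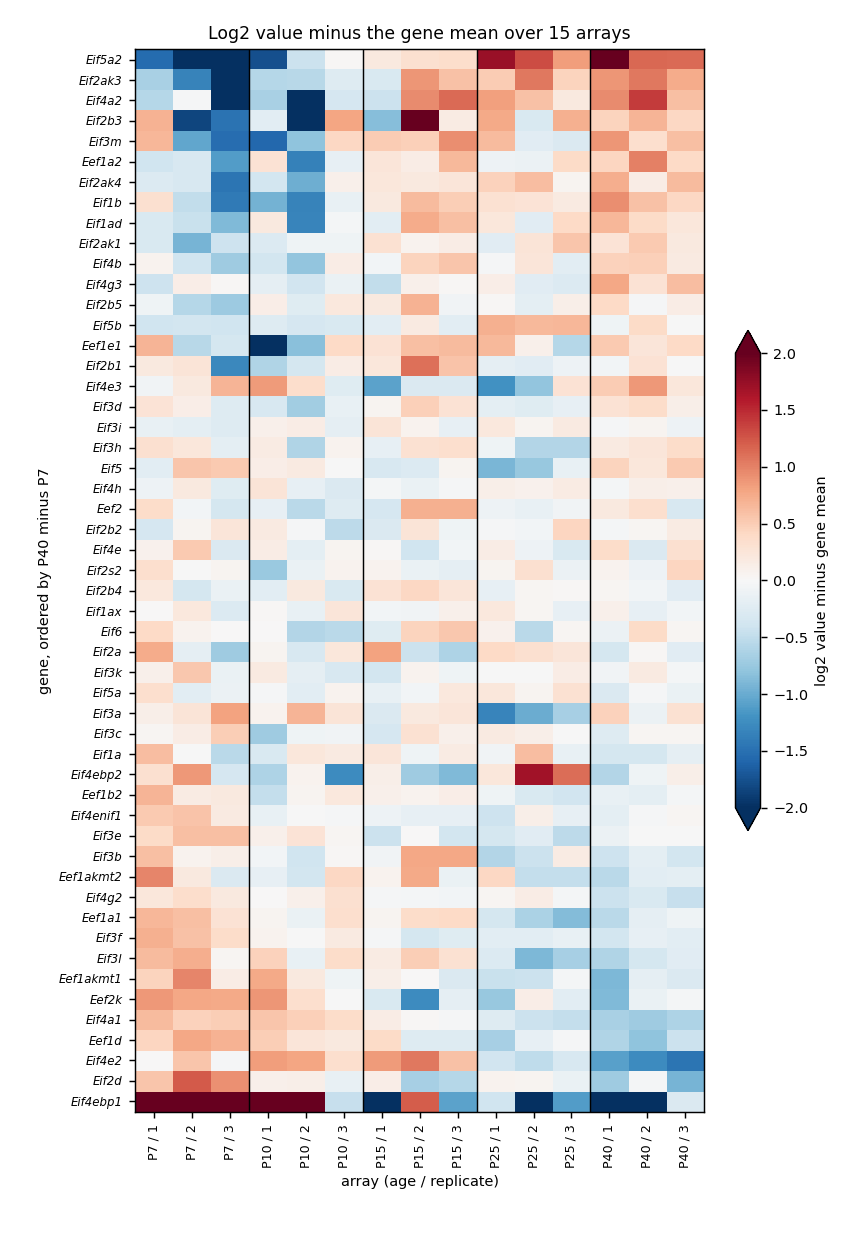
Log2 value minus the gene's mean over the 15 arrays, for the 52 tested genes (rows, ordered by P40 minus P7) and each array (columns, by age and replicate); red is above and blue below the gene's mean, and the colours stop at 2. P7 replicate 3 and P10 replicate 2 are dark blue in several of the top rows, including Eif4a2, and Eif3a is blue on the 3 P25 arrays.

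Messenger RNAs with a 5′ terminal oligopyrimidine tract are translated under mTORC1 control, and 8 tested genes of the family are on a list of such genes known from human and mouse work. Of these 8, 5 fell, none rose and 3 did not pass, with a median difference of -0.52, against 17.6% lower, 27.6% higher and a median of 0.18 over all genes tested. Of the falls, Eef1b2 lost its call without any 1 of 3 arrays, and Eif3e with the beta-actin covariate. They are Eef1a1, Eef1b2, Eef1d, Eif3e and Eif3f among the falls, and Eef2, Eif3h and Eif4b among the others. Of the remaining 44 tested genes, 9 rose, 8 fell and 27 did not pass, with a median of 0.02.

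Genes of neighbouring steps of translation were counted in the same fit, P40 against P7, and read against the 27.6% higher and 17.6% lower of all genes. Of 20 aminoacyl-tRNA synthetase and scaffold genes, 5 rose, none fell and 15 did not pass, with a median of 0.30. Sars, the seryl-tRNA synthetase, averaged 12.12 ± 0.10 at P40 and 10.85 ± 0.09 at P7 (log2 difference 1.27, SE 0.21, limma adjusted p = 0.000269), and Aars, Nars, Gars and Iars, outside the naming rule, were the other rises. In the mTORC1 and MNK list, 5 of 10 rose and 1 fell, with a median of 0.60. The number of rises was 1 without P7 replicate 3, P40 replicate 1 or P40 replicate 2, under quantile normalization and with either covariate. It was 2 without P7 replicate 2 or P40 replicate 3, with equal array medians and with only the 2 ages compared. Deptor, an inhibitor of mTOR, averaged 9.16 ± 0.09 at P40 and 5.79 ± 1.46 at P7 (log2 difference 3.37, limma adjusted p = 0.000153), 10.3-fold. With values under 5 set to 5 the difference was 3.07, so the fold includes background, and with the mean of probe sets it was 2.06. Without P7 replicate 2 its difference was 2.52, still a call. Mknk2, a kinase of eIF4E, fell by 1.32 on the log2 scale.

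Of 9 poly(A)-binding and helicase genes, 2 rose and 2 fell, with a median of 0.07, and 1 rose and 1 fell with the beta-actin covariate. Paip2, an inhibitor of poly(A)-binding protein, averaged 13.28 ± 0.02 at P40 and 11.70 ± 0.17 at P7 (log2 difference 1.59, SE 0.20, limma adjusted p = 1.74e-05). Pabpc1, the main cytoplasmic poly(A)-binding protein, fell by 1.01 on the log2 scale (limma adjusted p = 0.00136). The other rise and fall, outside the naming rule, were those of Paip2b and Pabpc4, at 1.52 and -1.44.

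Of 8 integrated stress response genes, which act downstream of the eIF2 kinases, 2 rose and 6 did not pass, with a median of 0.11. Ddit3, the transcription factor CHOP, rose by 1.76 (SE 0.32, limma adjusted p = 0.000441), and Chac1, outside the naming rule, by 1.25 (adjusted p = 0.0439). The number of rises was 1 under both other normalizations, with the beta-actin covariate, and without any 1 of 10 arrays: P7 replicate 1 or 2, any P15 or P25 replicate, and P40 replicate 2 or 3. Of 9 mitochondrial translation factors, 3 rose, with a median of 0.54, and Gfm2, a mitochondrial ribosome recycling factor, averaged 7.05 ± 0.91 at P40 and 4.89 ± 0.17 at P7 (limma adjusted p = 0.00394). Of 8 termination and recycling genes, 1 rose: Pelo, a ribosome rescue factor, by 1.36 (limma adjusted p = 0.0168), with a list median of 0.25. Of 7 diphthamide and hypusine genes, 1 fell: Dhps, the deoxyhypusine synthase that acts on eIF5A, by 0.99 on the log2 scale (limma adjusted p = 0.00817), with a list median of -0.02. With the beta-actin covariate none of the mitochondrial factors was called, and Gfm2 had 1.77 (adjusted p = 0.0715). Dhps lost its call with that covariate and with the mean of probe sets, and Pelo with both covariates and without P7 replicate 3 or P40 replicate 1.

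Several values depend on which probe set stands for a gene. Of the 22 called genes, 11 had over 1 probe set above the limit, and in 5 of these, Eif2ak1, Eif2d, Eif4a1, Eif4g2 and Eif3e, a second probe set had a difference of the other sign. Of the 52 genes, 7, among them Eef1d, Eif3e and Eif4ebp1, were read from probe sets of the _x_at kind, which by Affymetrix's naming can bind other transcripts. Some genes that did not pass had a dimmer probe set that did in a fit over probe sets, chosen after their values were seen: Eif1a at -2.63, Eif1ax at -1.69, Eif2s2 at -2.64 and -0.53, Eif3c at -0.53, Eif4e3 at 1.77 and Eif5 at 1.96.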

How the data were processed

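The authors deposited 1 log2 value per probe set and array, made with GCRMA per the submitters' processing notes; its version is not given in the sources used here. Per the labels' protocols, 0.3 to 1 ng of RNA a sample went through 2 rounds of amplification. The deposited log2 values ran from 0.51 to 16.13, with array medians of 3.21 to 3.46, and were used unchanged. With arrays there is no sequencing depth: the 3 arrays an age limit the precision.

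Of 45101 probe sets, 34958 named 1 gene, 932 several and 9147 none in GEO's platform annotation, and 64 were controls. A gene was read from whichever of its single-gene probe sets averaged highest over the 15 arrays, and was tested if that set exceeded 5 on at least 3 of them. Replicates are the labels' biological replicates. limma 3.58.1 in R 4.3.3 fitted a means model over the 5 ages, with a trend in the prior variance, 10 residual degrees of freedom and a median of 4.85 added by the prior. All tests were two-sided and adjusted by Benjamini-Hochberg over the 9664 genes within each contrast. The limma script was tested on simulated data. SE is limma's standard error and ± the SD over 3 arrays. A fold for a gene of the family is given where both means exceed 5. Promoters were read from RefSeq (GRCm38.p6). Python 3.11.15 and matplotlib 3.10.9 drew the figures.

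The genes and lists were chosen with earlier results of these data known. Named with values were Eef1a1, Eef1a2, the 6 largest called rises and falls, the called gene with the smallest adjusted p in each role and direction, the 3 largest calls a step, genes called only by the F test and paralog pairs. Each other list gave its most significant called gene per direction. Other genes with values were chosen after their values were seen. Eif1, Eif4g1, Eif2s1 and Eif3g had no probe set of their own in the annotation and were not analysed here. For lack of Eif1 and Eif4g1, and because Eif3j2 and Eif3j1 share their probe sets, 4 of 10 planned paralog pairs were not run. The other settings were 2 normalizations, filters, floors, probe set choice, prior variance, array weights, covariates, samples and the replicate number as a block. The labels' replicate numbers were not taken to pair the animals.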

Additional observations from a re-analysis of the deposited data

Results flagged for a closer look

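Probe sets annotated to several genes entered no comparison, and 6 that include a gene of the family carried signal above the limit of 5 on all 15 arrays. The probe set shared by Gm29753 and Eef1g, the gamma subunit of eEF1, averaged 12.56 over the 15 arrays, with 12.56 ± 0.03 at P40 and 12.82 ± 0.28 at P7 (SD, n = 3 each). The 3 probe sets shared by Eif3j2 and Eif3j1 averaged 10.73, 8.51 and 7.84, and differed by -0.30, 0.27 and 0.64 between P40 and P7. The probe set shared by Gm5576 and Eif4a3 averaged 10.10 and differed by -0.08, whereas the single-gene probe set of Eif4a3 stayed at background. The probe set shared by Ankhd1 and Eif4ebp3 averaged 7.65 and differed by -0.20. These differences were not tested.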

How the results depend on the processing

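The 29 other settings were 14 processing choices and 15 single arrays left out. Of the 22 genes called between P40 and P7, 7 kept the call under all settings that gave a value: Eif5a2 and Eif2ak3 among the rises, and Eef1a1, Eif4ebp1, Eef1d, Eif3f and Eif3l among the falls. Of the 9 rises, 2 were called with the beta-actin covariate in all and 4 with the cells covariate. The number higher over all genes tested went from 2663 to 1369 and 2141 with these covariates. Leaving out single arrays gave 4 to 12 rises and 10 to 13 falls. The F test called 12 with the mean of probe sets, which averages bright with dim ones and tested 49 of the genes, and 18 to 28 without single arrays. Over all genes tested, the F test called 3798 of 8244 with the mean of probe sets, against 4560 of 9664 without it. The calls over the 4 steps went to 2 with the mean of probe sets, 3 without a trend and 41 with array weights. Over all genes tested, array weights gave 388, 2956, 1622 and 1001 calls from the first step to the last, against 348, 1099, 470 and 65 without. The mean of probe sets gave 265, 1059, 361 and 8, and the fit without a trend 305, 906, 385 and 52. The step calls of the family went to 3 with the beta-actin covariate, 2 with the cells covariate, 3 with only the 2 ages compared, and 1 to 13 without single arrays. All genes tested gave 395, 150, 311 and 12 calls with the beta-actin covariate and 353, 24, 190 and 56 with the cells covariate. With only the 2 ages compared they gave 43, 53, 406 and 9. In the pairs, Eif4e2 minus Eif4e no longer passed with the mean of probe sets (-0.45) or with P15 among the later ages (-0.61), and Eif4e3 minus Eif4e turned to 0.82 with the mean of probe sets. Where no construction shows it, the cause was not tested.

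Among genes that did not pass, Eif4e turned to -0.18 (quantile normalization), -0.19 (equal medians) and -0.045 (cells covariate), and ran from -0.17 to 0.24 without single arrays, below 0 without P7 replicate 3, P40 replicate 1 or P40 replicate 3. Eif5a ran from -0.26 to 0.017, above 0 only without P7 replicate 1, and Eif4ebp2 to 0.32 with the beta-actin covariate.

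With the replicate number as a block, 8 rose and 13 fell, the F test called 19 and the steps 3. Over all genes tested, 2518 rose and 1642 fell with that block, and the F test called 4114. Of 30 pairs of arrays with the same number, 3 correlated above 0.1 in their deviations from the age means (median -0.07). Of 60 pairs with different numbers, 12 did (median 0.02). The numbers were therefore read as names of samples only, though these correlations cannot exclude shared handling.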
